A study of Schizosaccharomyces pombe with 72 samples.

Results

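Gene expression of fission yeast cells arrested in G1 was set against that of cycling cells at the same temperature, 36.5 °C. The comparison used 24 of the 72 libraries of the series: the 12 libraries labelled G1 (strain codes 82, 83, 84 and 85, with 3 replicates each) and the 12 libraries labelled V at 36.5 °C (strain codes 86, 92, 93 and 97, with 3 replicates each). G1-arrested cells carried the temperature-sensitive allele cdc10-129 and were held in rich complete medium (YES) at 36.5 °C. Cycling cells (V36.5) grew in YES and were shifted there from 25 °C for a single doubling. The G1 labels give no temperature, so that of the arrest was taken from the design text of the series. On each side the study used a wild-type strain, the cohesin loader mutant mis4-G1487D, the mutant mip1-R401G in the Raptor subunit of TORC1 (target of rapamycin complex 1) and the double mutant. The labels do not pair the strain codes with these genotypes, so each code was treated as a group and none was given a genotype. A change is called held in all 16 pairs when each of the 4 G1 strains differed from each of the 4 cycling strains, in 1 direction.

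In fission yeast the transcription factor MBF, made of Cdc10 with Res1 and Res2, drives genes for DNA replication as cells pass from G1 into S phase. Loss of Cdc10 function stops cells before that point, called Start, where they stay competent to mate. Later in the cycle, forkhead and MADS-box factors drive a wave of mitotic genes, and the enzymes that separate the daughter cells are made after it. In starved cells of opposite mating types, the HMG-box factor Ste11 drives the genes for pheromones, their receptors and meiosis.

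The cdc10-129 allele is given for the arrested cells and not for the cycling cells, so the arrest, the allele itself and any other difference between these 2 sets of strains cannot be told apart. The allele is no deletion, so the cdc10 transcript is no check of the labels. cdc10 was found at 103, 129 and 161 CPM in G1-arrested cells, against 76.0, 89.2 and 107 CPM in cycling cells (here and below, the lowest, median and highest of the 12 libraries on each side), a log2 difference of 0.51 ± 0.07 (SE, adjusted p = 9.32e-07) that passed in 14 of the 16 pairs. CPM values are gene counts set to a common library size, scaled by the TMM method of edgeR. Unless stated otherwise, differences are log2 fold changes, taken as the mean log2 level of the 4 G1 strains minus that of the 4 cycling strains. Their p-values are from the quasi-likelihood test of edgeR, adjusted over all 6219 genes tested by the Benjamini-Hochberg method. These SEs and p-values rest on the spread of replicates within strains, not on the spread between strains.

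Library totals were 3759770 to 7664476 counts in G1-arrested cells and 1457590 to 7159426 in cycling cells, where the 4 libraries of batch 3 were the shallowest, at 1457590 to 2139722 counts. At these depths 3 counts correspond to 0.391 to 0.798 CPM in G1-arrested cells and 0.419 to 2.06 CPM in cycling cells. The replicate numbers are batch numbers in the labels, and each batch holds all 8 strains once. The first principal component of all 24 libraries took 47.2% of the variance and separated the G1 libraries from the cycling ones. Strain 85 was uneven: its replicates 2 and 3 differed from its replicate 1 at the right end of chromosome I and at the galactose genes (values are given with the genes of that arm). The counts held in all pairs of all genes, of septum genes and of named genes are also given without those replicates. Counts of the other lists and of RNA classes rest on all replicates of this strain.

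Expression differed widely between arrested and cycling cells. On average over strains, 4260 of 6219 genes tested (68.5%) passed an adjusted p of 0.05 in edgeR. Of these, 2121 (34.1%) were higher and 2139 (34.4%) were lower in G1. This test weighs a difference against the spread of replicates within strains. With the replicates of each strain summed, so that strains were the units, 3507 of 6340 genes passed. Single strain pairs gave 1925 to 2726 genes. In all 16 pairs, 309 genes (4.97% of those tested) were higher and 301 (4.84%) were lower, together 610 (9.81%). In 152 of these (2.44%) the difference was at least 2-fold in each pair, with 111 higher (1.78%) and 41 lower (0.659%). With no overlap between the 12 libraries of each side, 347 genes (5.58%) were higher and 343 (5.52%) lower in G1. At the other extreme 1512 genes (24.3%) passed in no pair. With batch as a block in the model, 430 genes were higher and 556 lower in all 16 pairs (986 together), and these contained all 610. The count fell to 341, 152 and 394 without the libraries of batch 1, 2 and 3, where each pair rests on fewer libraries. It fell to 281 with strain 85 represented by its replicate 1 alone, which takes libraries from the 4 pairs of that strain. The plot of all genes tested shows the 2 sides of the comparison.

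**Figure D1:**
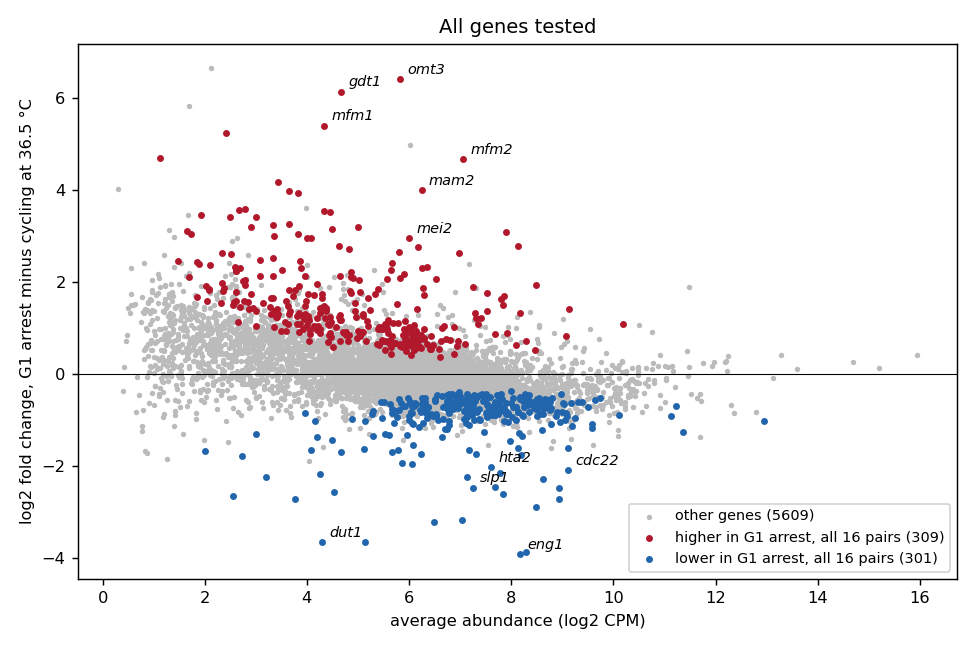
Log2 fold change of G1 arrest over cycling at 36.5 °C (vertical axis) against average abundance in log2 CPM (horizontal axis), 1 point for each of 6219 genes. The 309 genes higher in all 16 strain pairs are red, the 301 lower are blue, and named points include omt3 at 6.42 and eng1 at −3.92.

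Lists of genes for cell cycle steps, mating, growth and stress were then followed. Septum and cell separation genes were lower in all 16 pairs in 12 of 20 members tested, and none was higher (the median log2 fold change of the list was −1.51, against 0.01 for all genes tested). Histone genes were lower in 7 of 11, and MBF target genes in 9 of 24, with 2 MBF targets higher. Mating and pheromone genes went the other way, with 14 of 24 higher and none lower, and a median of 1.10. In most lists for growth and stress few or no members held in all 16 pairs. Over all genes tested the share was 4.97% higher and 4.84% lower. The lists were chosen with earlier results of these data known, so these counts are a description and were not tested against that share.

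**Figure D2:**
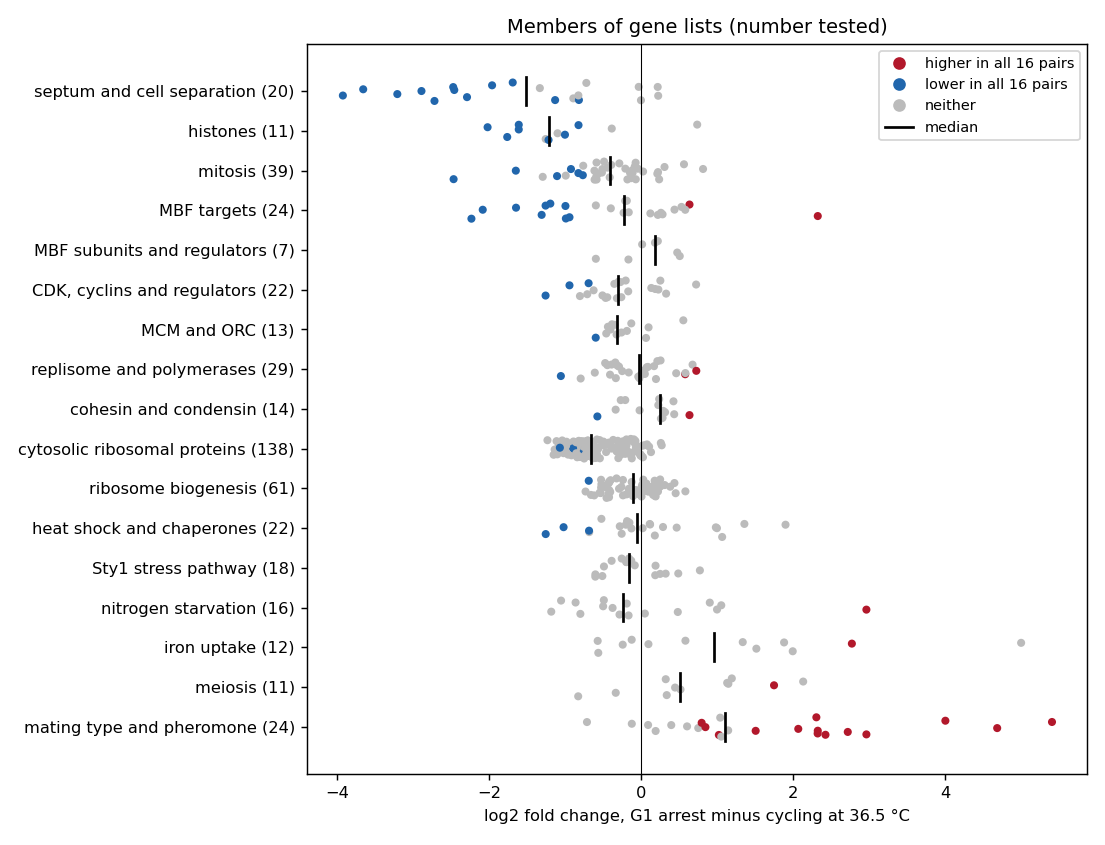
Log2 fold change of G1 arrest over cycling at 36.5 °C for the members of 17 gene lists, 1 point for each gene tested, with the number tested beside each list and a bar at the median. Members that held in all 16 strain pairs are red (higher in G1) or blue (lower in G1), from 12 blue points of 20 for septum and cell separation to 14 red points of 24 for mating type and pheromone.

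Septum and cell separation genes were strongly lower in G1-arrested cells than in cycling cells, and eng1, adg1, adg2 and exg1 were among the 10 largest coding falls. eng1, the endo-glucanase that dissolves the primary septum (SPAC821.09, chromosome I, 998686 to 1002361 in the ASM294v2 coordinates of the table), was found at 21.2, 34.5 and 52.0 CPM in G1-arrested cells, against 292, 524 and 901 CPM in cycling cells. The difference was −3.92 ± 0.19 (SE, adjusted p = 1.91e-12), and the highest G1 library lay far below the lowest cycling library. The chitinase-family gene cts2, outside the list, had 27.3, 39.9 and 66.4 CPM in G1-arrested cells, against 293, 554 and 937 CPM in cycling cells, a difference of −3.86 ± 0.20, and again the sides did not overlap.

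Other genes of cell separation and septum assembly followed with smaller differences. adg1, adg2 and adg3 differed by −3.21 ± 0.19, −2.89 ± 0.25 and −2.47 ± 0.15. The glucanase gene exg1 was found at 69.9, 119 and 221 CPM in G1-arrested cells, against 678, 820.4 and 1271 CPM in cycling cells, a difference of −2.72 ± 0.12. agn1, the alpha-glucanase that acts with Eng1 on the septum edge, differed by −1.96 ± 0.09, and mid2, an anillin-like organiser of the septin ring, by −2.29 ± 0.09. The synthases of the septum itself changed less: bgs1, the beta-glucan synthase of the primary septum, had 374 CPM in G1-arrested cells and 617 CPM in cycling cells at the median, a difference of −0.82 ± 0.09 that held in all pairs. bgs3 (−0.89) and bgs4 (−0.83) passed in 13 and 12 pairs.

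Septins, which form the ring beside the septum, were not lower in all pairs. spn1 and spn2 differed by −0.03 and −0.00 and passed in 3 pairs each with no average call, and spn3 and spn4 were both 0.22 higher on average, in 2 and 3 pairs. spn6, a septin known from sporulation, was found at 9.17, 16.7 and 23.2 CPM in G1-arrested cells, against 0.721, 1.89 and 3.28 CPM in cycling cells, and rose by 3.02 ± 0.15 in all 16 pairs (it was named after its value was seen). Across the settings tried, 10 to 16 of the 20 septum genes were lower in all pairs and none was higher, 16 with batch as a block and 10 without batch 2 or with strain 85 by its replicate 1.

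Genes of mitosis were lower in part. Of 39 tested, 6 were lower and 0 higher in all 16 pairs (median −0.41). Over the settings tried, 3 to 13 were lower and 0 to 2 higher, with 4 lower without batch 2. With batch as a block 13 were lower and 1 higher. slp1, the activator of the anaphase-promoting complex, had 37.5, 46.0 and 63.1 CPM in G1-arrested cells, against 200.2, 256 and 387 CPM in cycling cells, a difference of −2.47 ± 0.09 (SE, adjusted p = 3.68e-15) with no overlap between the sides. slp1 lies next to eng1 in the divergent orientation on chromosome I. cdc15, the F-BAR scaffold of the contractile ring, was found at 48.0, 71.9 and 83.8 CPM in G1-arrested cells, against 168, 205 and 303 CPM in cycling cells, a difference of −1.65 ± 0.08. The mitotic kinase genes fin1 (−1.11 ± 0.08) and plo1 (−0.92 ± 0.09), the ring gene imp2 (−0.83 ± 0.11) and the beta-tubulin gene nda3 (−0.77 ± 0.06) made up the rest of the 6. The calls of plo1 and imp2 each ended in 7 of the 24 settings without 1 library. That of plo1 also ended without batch 2 or without batch 3, and that of imp2 without batch 1 or without batch 2.

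Factors upstream of the mitotic wave changed less evenly. fkh2, a forkhead factor of this wave, differed by −1.29 ± 0.18 and passed in 13 pairs, and spo12 by −0.99 ± 0.10 in 15. cdc13, the mitotic B-type cyclin, was found at 179.7, 231 and 269 CPM in G1-arrested cells, against 236, 321 and 446 CPM in cycling cells. Its difference of −0.51 ± 0.09 passed in 10 pairs, and the sides overlapped. cdc2, the cyclin-dependent kinase itself, was 0.19 higher on average and passed in no pair. mad3, of the spindle checkpoint, went against the list at 0.81 ± 0.10, in 13 pairs. The medians of fkh2 were 20.7 CPM in G1-arrested cells and 50.9 CPM in cycling cells.

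Upstream windows are the 250 bases before the gene start annotated by RefSeq in ASM294v3, written 5′ to 3′ on the strand of the gene. That of cdc15 (chrI:1402937-1403186, minus strand) is shown because it holds a pair of matches to the forkhead letters GTAAACA on opposite strands, in capitals, beginning 48 and 37 bases before the gene start.
cdc15: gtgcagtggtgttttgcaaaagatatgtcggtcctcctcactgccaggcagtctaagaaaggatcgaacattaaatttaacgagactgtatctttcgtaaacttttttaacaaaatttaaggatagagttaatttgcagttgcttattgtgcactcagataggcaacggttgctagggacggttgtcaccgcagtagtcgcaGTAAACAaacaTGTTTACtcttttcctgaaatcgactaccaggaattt
GTAAACA, on either strand, was found in 4 of the 6 mitosis genes lower in all pairs (cdc15, fin1, imp2 and plo1) and in 11 of the 39. Over the windows of all 4969 coding genes tested the share was 14.9%, among those lower in all pairs it was 25.2%, and among those higher it was 14.5%. The matches, here and for the windows of other genes, are a description of letters.

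The targets of MBF did not move as a block: 9 of 24 were lower and 2 higher in all 16 pairs, with a median of −0.22. cdc22, the large subunit of ribonucleotide reductase (SPAC1F7.05, chromosome I, 4226958 to 4229989), was found at 176, 208 and 257 CPM in G1-arrested cells, against 726, 869.8 and 1452 CPM in cycling cells. The difference was −2.08 ± 0.08 (SE, adjusted p = 4.35e-15), and all 12 G1 libraries lay below all 12 cycling ones. tos4, a forkhead-associated domain gene expressed at the G1 to S transition, had 32.8, 51.4 and 68.7 CPM in G1-arrested cells, against 195, 229 and 316 CPM in cycling cells, a difference of −2.23 ± 0.09. cig2, the S phase cyclin, kept to a narrow range with 96.8, 104 and 112 CPM in G1-arrested cells, against 212, 252 and 278 CPM in cycling cells, a difference of −1.26 ± 0.05 (SE, adjusted p = 4.24e-15) that spanned −1.34 to −1.17 over the 16 pairs.

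cdc18 and cdt1, targets that act in licensing of replication origins, were also lower in all pairs. cdc18, the fission yeast Cdc6, was found at 23.1, 26.0 and 31.3 CPM in G1-arrested cells, against 67.8, 83.4 and 111 CPM in cycling cells, a difference of −1.65 ± 0.07. cdt1, its partner in loading the MCM helicase, differed by −1.31 ± 0.09. The remaining targets lower in all pairs were ssb1, the large subunit of the single-strand DNA binding protein RPA (−1.19 ± 0.07), the mismatch repair gene msh6 (−1.0 ± 0.08), the checkpoint mediator gene mrc1 (−0.99 ± 0.09) and the Cdc2-inhibiting kinase gene mik1 (−0.94 ± 0.08).

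Against these, psm3, which encodes an SMC subunit of cohesin, was found at 295, 329 and 382 CPM in G1-arrested cells, against 188, 214 and 245 CPM in cycling cells, and rose by 0.64 ± 0.05 (SE, adjusted p = 1.10e-09). No G1 library overlapped a cycling one. The other target that rose was ste6, an activator of Ras1 in mating, at 2.32 ± 0.10 (it is also in the mating list). rad54 (0.53) and cdt2 (0.44), for recombination and for Cdt1 turnover, were higher on average and in 12 and 11 pairs. rad21, pol1, ams2 and ctp1 did not pass the average test. Without batch 2, 7 targets were lower and 1 higher in all pairs, and psm3 was then among those not held in every pair.

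The subunits and regulators of MBF themselves held in no case in all 16 pairs, but with batch as a block 1 of 7 was higher and 1 lower. res1 differed by 0.18 ± 0.08 and res2 by −0.17 ± 0.11, and both passed in no pair (res2 was 0.01 without batch 3). rep2, the co-activator, was found at 99.2, 144 and 197 CPM in G1-arrested cells, against 85.0, 102 and 119 CPM in cycling cells, a difference of 0.47 ± 0.06 in 10 pairs. nrm1, the co-repressor that is itself a target, had 65.7 CPM in G1-arrested cells and 92.9 CPM in cycling cells at the median, a difference of −0.60 ± 0.11 in 9 pairs.

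The windows of cdc22 (chrI:4226720-4226969) and tos4 (chrI:1922293-1922542), both on the plus strand, are shown because they carry ACGCGT, the MluI cell-cycle box bound by MBF, in capitals. The matches begin 62 and 52 bases before the start of cdc22 and 79 bases before that of tos4. ACGCGT reads the same on both strands.
cdc22: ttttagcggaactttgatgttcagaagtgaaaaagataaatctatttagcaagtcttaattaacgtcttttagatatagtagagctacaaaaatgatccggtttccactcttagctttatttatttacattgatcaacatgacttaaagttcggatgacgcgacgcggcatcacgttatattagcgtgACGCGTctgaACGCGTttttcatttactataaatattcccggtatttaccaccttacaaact
tos4: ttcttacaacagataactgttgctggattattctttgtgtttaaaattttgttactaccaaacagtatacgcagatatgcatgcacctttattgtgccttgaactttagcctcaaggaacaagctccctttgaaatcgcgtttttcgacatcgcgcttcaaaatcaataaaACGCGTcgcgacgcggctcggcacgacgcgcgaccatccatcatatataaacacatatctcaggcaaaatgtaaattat
The box was found in 10 of the 24 targets, among them 5 of the 9 that were lower in all pairs (cdc22, cdt1, mrc1, ssb1 and tos4) and psm3, which was higher. The share was 2.68% of all 4969 windows, 5.86% of those lower in all pairs and 4.62% of those higher.

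Genes of nucleotide supply outside the MBF list also differed. dut1, the dUTPase, had 0.739, 2.72 and 3.98 CPM in G1-arrested cells, against 19.3, 34.7 and 66.0 CPM in cycling cells, a difference of −3.66 ± 0.18 (SE, adjusted p = 1.26e-13), and it was the fourth largest coding fall by its smallest pair difference. spd1, an inhibitor of ribonucleotide reductase, was found at 34.8, 51.4 and 67.5 CPM in G1-arrested cells, against 85.9, 106 and 117 CPM in cycling cells, a difference of −1.06 ± 0.08. suc22, the small subunit of the reductase, had 526 CPM in G1-arrested cells and 472 CPM in cycling cells at the median, a difference of 0.17 in 7 pairs. pol4, a repair polymerase outside the lists, was higher in all pairs at 3.56 ± 0.24 (named after its value was seen).

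Replication machinery showed small and mixed differences. Of 29 replisome genes, 2 were higher (cdc27 at 0.72 ± 0.09 and dpb4 at 0.58 ± 0.07, subunits of the replicative polymerases delta and epsilon) and 1 lower in all pairs, the median was −0.02, and with batch as a block 3 were higher and 3 lower. Both rises were close to the limit: leaving out any of the 3 batches ended both calls, and of the 24 settings that leave out 1 library, 11 ended that of cdc27 and 19 that of dpb4. Of 13 MCM and origin recognition genes only mcm2 was held, at −0.60 ± 0.08 (10 were lower on average, against 34.4% of all genes). This call ended in 12 of the 24 settings without 1 library, without any batch and with ribosomal RNA genes left out, and with batch as a block 1 gene was higher and 1 lower. Of 14 cohesin and condensin genes psm3 was higher and cnd2, a condensin subunit, was lower (−0.58 ± 0.06), with 1 higher and 2 lower under the block. Neither was held without batch 2, and cnd2 was also not held without batch 3. For comparison with the counts of these 3 lists, 4.97% of all genes tested were higher and 4.84% lower in all pairs. mis4, the gene of the mutated loader, was 0.42 higher on average and passed in 6 pairs.

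Histone genes fell as a group. 7 of 11 were lower in all 16 pairs and 10 of 11 on average (34.4% of all genes), with a median of −1.22. hta2, for histone H2A, had 52.9, 74.7 and 109.6 CPM in G1-arrested cells, against 248, 296 and 439.9 CPM in cycling cells, a difference of −2.02 ± 0.08 (SE, adjusted p = 3.68e-15) with no overlap. htb1, the single H2B gene, was found at 93.4, 132 and 209.7 CPM in G1-arrested cells, against 265, 411 and 920.4 CPM in cycling cells, a difference of −1.76 ± 0.17. It was not held in all pairs without batch 1 or without batch 2.

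Histone H3 and H4 genes come in near-identical copies whose reads the counting could share, so their single values are uncertain. hht1 and hht3 (H3) differed by −1.61 ± 0.13 and −1.61 ± 0.08, hht2 by −0.82 ± 0.06, and hhf2 (H4) by −1.0 ± 0.08. hhf1 and hhf3 passed in 14 and 13 pairs. The variant genes were not held in all pairs: pht1, for H2A.Z, differed by −0.39 ± 0.13 in 3 pairs, and cnp1, for the centromeric H3, was the 1 member that was higher, with 27.7 CPM in G1-arrested cells and 17.9 CPM in cycling cells at the median and 0.74 ± 0.14 in 8 pairs. Without batch 1 or without batch 2, 3 histone genes were lower in all pairs.

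The window of htb1 (chrIII:1412109-1412358, plus strand) is shown for the letters AACCCT, known upstream of fission yeast histone genes. Here they stand 2 times on the opposite strand, in capitals as AGGGTT, 59 and 53 bases before the gene start.
htb1: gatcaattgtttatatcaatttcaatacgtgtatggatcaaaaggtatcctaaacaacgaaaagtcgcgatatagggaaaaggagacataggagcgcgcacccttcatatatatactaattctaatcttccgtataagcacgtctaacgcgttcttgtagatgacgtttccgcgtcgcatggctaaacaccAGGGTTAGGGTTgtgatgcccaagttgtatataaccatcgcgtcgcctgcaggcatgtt
AACCCT, on either strand, was found in 9 of the 11 histone windows, those of all 7 genes lower in all pairs among them, and not in cnp1 or pht1. It was found in 8.35% of all coding windows and in 12.4% of those lower in all pairs.

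The plot of cell cycle genes by library gives all 24 values of 12 of these genes. In each of the 12 the G1 libraries stand on 1 side of the cycling ones.

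**Figure D3:**
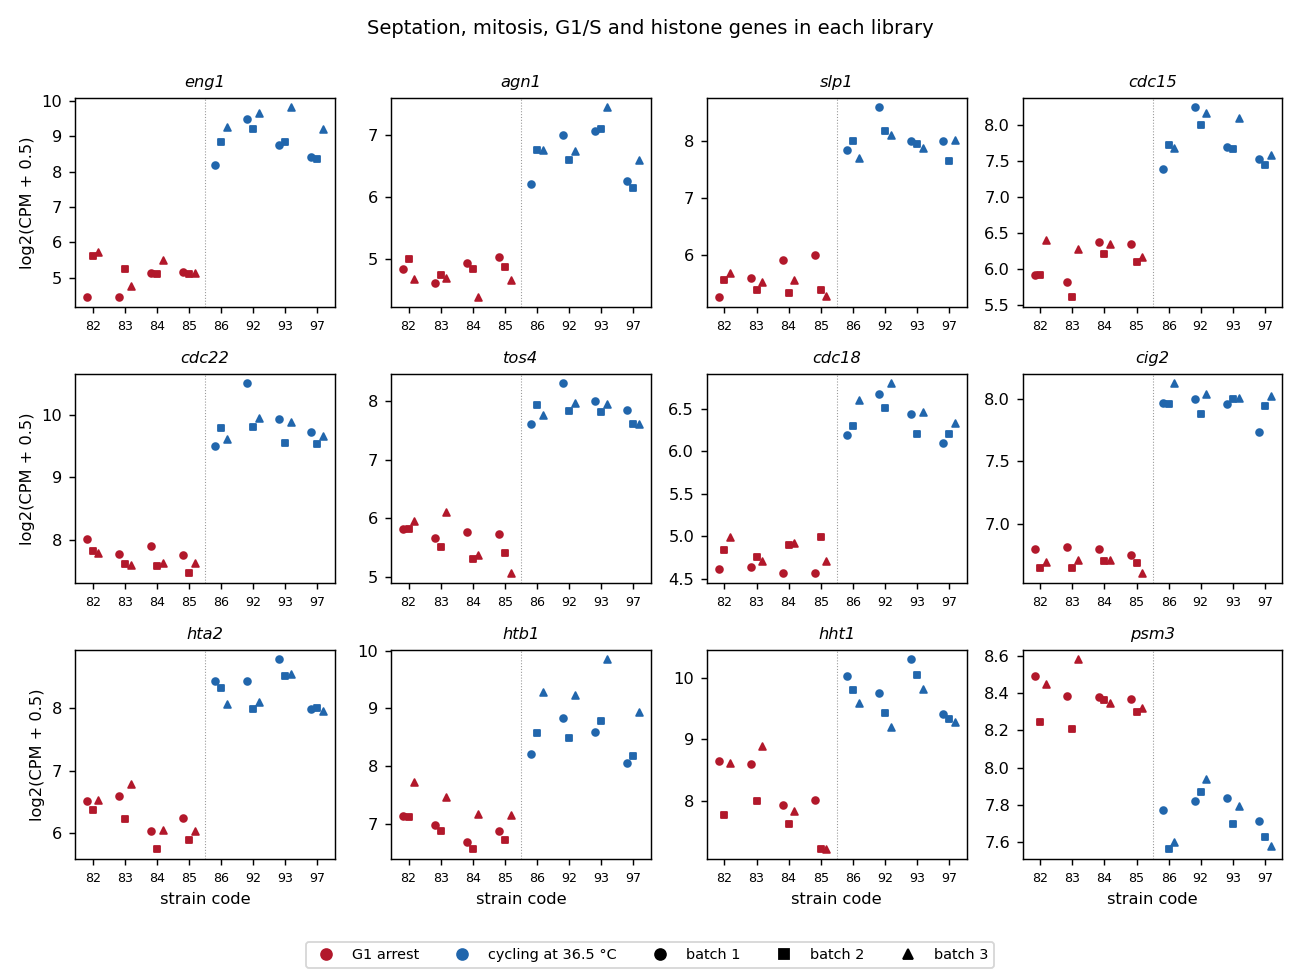
Expression of 12 genes of septation, mitosis, the G1 to S transition and histones as log2(CPM + 0.5), 1 point for each library, by strain code. G1-arrested strains (82 to 85) are red on the left and cycling strains (86 to 97) blue on the right, with a shape for each batch, and only psm3 is higher in G1 (median 329 against 214 CPM).

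Mating and pheromone genes were higher in arrested cells, in rich medium. Of 30 genes in the list, 28 were in the table and 24 passed the filter on low counts. Of these 24, 14 were higher in all 16 pairs and 0 lower. On average 20 were higher and 1 lower, against 34.1% and 34.4% of all genes. In bulk RNA, more cells that express a gene and more RNA in each cell cannot be told apart. Among the pheromone genes, mfm1, for M-factor (SPAPB8E5.05, chromosome I, 4916603 to 4917521), was found at 14.8, 29.9 and 64.3 CPM in G1-arrested cells, against 0, 0.751 and 2.98 CPM in cycling cells, a difference of 5.4 ± 0.37 (SE, adjusted p = 3.42e-10). mfm2, a second gene for the same pheromone, had 135, 242 and 437 CPM in G1-arrested cells, against 7.05, 8.74 and 20.9 CPM in cycling cells, a difference of 4.68 ± 0.22 (SE, adjusted p = 1.91e-12). Neither gene overlapped between the sides. The third, mfm3, was lower in abundance and differed by 2.30 ± 0.28.

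M-factor processing and export genes were higher too. mam1, the M-factor transporter, was found at 256, 319.9 and 499 CPM in G1-arrested cells, against 94.7, 119 and 140.5 CPM in cycling cells, a difference of 1.51 ± 0.11, and mam4, its methyltransferase, differed by 1.02 ± 0.10. map2, the gene for the opposite pheromone P-factor, had 4.87, 15.5 and 29.8 CPM in G1-arrested cells, against 3.53, 6.57 and 15.7 CPM in cycling cells. Its sides overlapped, and its difference of 1.14 ± 0.19 spanned −0.31 to 2.34 over the pairs, of which 10 passed.

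Of the receptors, mam2, which M cells use to sense P-factor, was found at 63.5, 136 and 220.5 CPM in G1-arrested cells, against 4.38, 8.82 and 12.5 CPM in cycling cells, a difference of 4.0 ± 0.20 (SE, adjusted p = 2.11e-12). map3, the receptor of P cells, had 28.8, 37.7 and 45.3 CPM in G1-arrested cells, against 19.4, 25.4 and 29.6 CPM in cycling cells, a difference of 0.60 ± 0.09 in 15 pairs. The mating-type genes were too low to be tested. Summed over 12 libraries, mat1-Mc had 30 counts in G1-arrested cells against 2 in cycling cells, mat1-Mi 79 against 4, and mat3-Mc 31 against 1. The P genes mat2-Pc and mat2-Pi had 0 counts in G1-arrested cells against 1 and 2 in cycling cells. mat1-Pc and mat1-Pm were not analysed here. The study's strain list gives an M-type locus (mat1-M-smt0) to its cycling RNA-seq strains and has cdc10-129 strains of both mating types (h- and h+) for other experiments. Which of them gave the arrested libraries is not given there, so a difference in mating type between the sides was not tested.

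Signalling downstream of the receptors was higher at most steps. ste4, the adaptor of the kinase Byr2, was found at 58.4, 83.1 and 97.3 CPM in G1-arrested cells, against 11.4, 16.2 and 18.7 CPM in cycling cells, a difference of 2.42 ± 0.10 (SE, adjusted p = 4.35e-15). spk1, the pheromone MAP kinase, had 33.0, 73.8 and 98.7 CPM in G1-arrested cells, against 10.7, 16.9 and 27.9 CPM in cycling cells, a difference of 2.07 ± 0.16. gpa1, the G-protein alpha subunit, differed by 0.80 ± 0.08, and byr1, the MAP kinase kinase, by 0.75 ± 0.08 in 14 pairs. byr2 (0.19 ± 0.13) did not pass on average. rgs1, the negative regulator of the G-protein, was also higher, at 2.32 ± 0.10.

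Transcription factors of the pathway differed in size. map1, the MADS-box cofactor, was found at 39.9, 47.0 and 56.4 CPM in G1-arrested cells, against 4.75, 6.52 and 12.2 CPM in cycling cells, a difference of 2.72 ± 0.11 (SE, adjusted p = 4.35e-15). ste11 had 80.7, 113 and 214 CPM in G1-arrested cells, against 33.7, 59.3 and 115 CPM in cycling cells. It overlapped between the sides, and its difference of 1.05 ± 0.19 passed in 10 pairs. mei2, the RNA-binding protein that triggers meiosis, was found at 50.5, 95.9 and 185.6 CPM in G1-arrested cells, against 6.83, 14.8 and 37.9 CPM in cycling cells, a difference of 2.96 ± 0.24 in all pairs. The fusion formin gene fus1 rose by 0.85 ± 0.07. sxa1, a protease gene, was the 1 member lower on average, at −0.71 ± 0.07 in 12 pairs.

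The window of mei2 (chrI:4515026-4515275, minus strand) is shown for TTCTTTGTT, the TR box bound by Ste11, which stands in it 2 times in capitals, beginning 160 and 138 bases before the gene start.
mei2: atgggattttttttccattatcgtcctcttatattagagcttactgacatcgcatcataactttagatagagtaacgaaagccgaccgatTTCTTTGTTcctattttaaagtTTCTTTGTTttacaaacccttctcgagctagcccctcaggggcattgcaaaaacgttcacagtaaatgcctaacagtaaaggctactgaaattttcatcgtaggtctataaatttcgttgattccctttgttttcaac
The box, on either strand, was found in 9 of the 24 mating genes tested and in 8 of the 14 that were higher in all pairs (mam4, mei2, mfm1, mfm3, rgs1, spk1, ste4 and ste6). It was found in 1.59% of all coding windows, in 8.09% of those higher in all pairs and in 0.69% of those lower. Over the settings tried, 10 to 17 mating genes were higher in all pairs and none was lower, with 10 without batch 2 (mei2, mam4, gpa1 and mfm3 were then not held) and 17 with batch as a block.

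**Figure D4:**
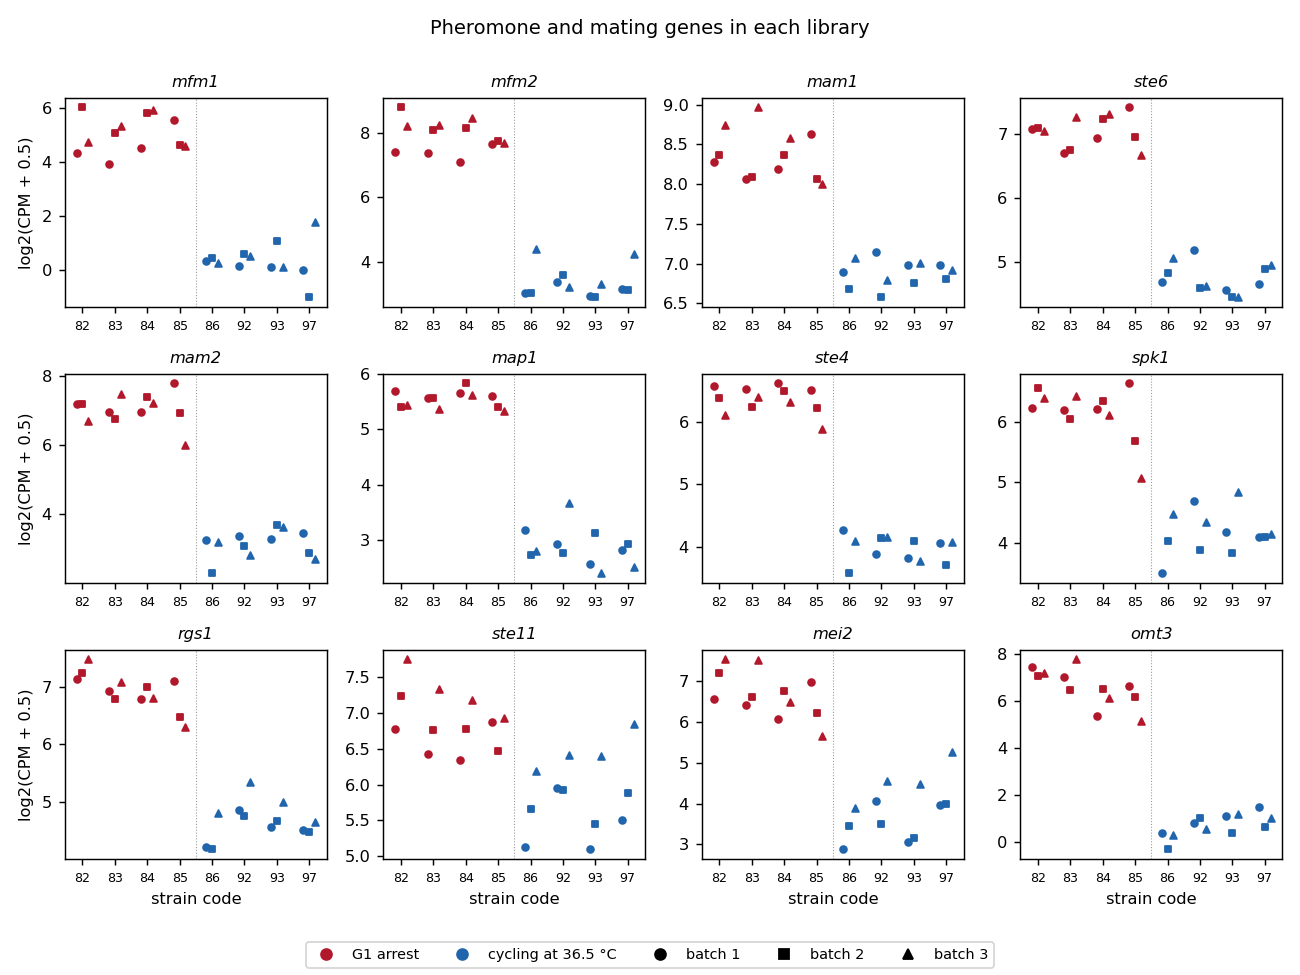
Expression of 11 pheromone and mating genes and of the non-coding RNA omt3 as log2(CPM + 0.5), 1 point for each library, by strain code, with G1-arrested strains (82 to 85) in red on the left, cycling strains (86 to 97) in blue on the right and a shape for each batch. The sides do not overlap except in ste11, whose G1 libraries start at 80.7 CPM and whose cycling libraries reach 115 CPM.

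Meiotic genes were higher in part. Of 11 tested, meu13, for a protein of homologue pairing, was held in all pairs at 1.75 ± 0.18. On average 8 were higher, against 34.1% of all genes. hop1, a chromosome axis gene outside the list, was found at 36.3, 45.8 and 60.5 CPM in G1-arrested cells, against 6.70, 11 and 18.8 CPM in cycling cells, a difference of 2.09 ± 0.14 (named after its value was seen). dmc1, the meiotic recombinase, and rec8, the meiotic cohesin subunit, differed by 2.13 ± 0.30 and 1.13 ± 0.17 in 11 pairs each. dmc1 is a low gene, with 0.985, 3.73 and 8.73 CPM in G1-arrested cells, against 0, 0.680 and 2.23 CPM in cycling cells. spo6 went against the list at −0.83 ± 0.18 in 7 pairs.

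Genes of the nitrogen starvation response did not rise with the mating genes. Of 16 tested, mei2 alone was held in all pairs, and the median was −0.24. On average 4 were higher and 6 lower, against 34.1% and 34.4% of all genes. put4, for proline uptake, was found at 11.1, 16.1 and 26.6 CPM in G1-arrested cells, against 22.8, 42.8 and 52.3 CPM in cycling cells, a difference of −1.18 ± 0.13 in 15 pairs. The GATA factor gene gaf1 (−0.80 ± 0.22) passed in 3 pairs, and isp6, a protease gene known from starvation, did not pass (−0.28 ± 0.16). With batch as a block 3 were higher and 1 lower in all pairs.

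Growth genes were lower by modest amounts. Of 138 cytosolic ribosomal protein genes, 111 were lower and 1 higher on average (34.4% and 34.1% of all genes), and the median was −0.66, but 6 were lower in all 16 pairs, 32 with batch as a block and none without batch 2. rpp103, an acidic stalk protein gene, had 58.9, 95.6 and 104 CPM in G1-arrested cells, against 139, 196 and 228 CPM in cycling cells, a difference of −1.07 ± 0.10. rps1202 differed by −0.82 ± 0.08 and rpl1603 by −0.90 ± 0.07. The summed share of these genes was 7.09% ± 0.227 of counts in G1 strains and 8.46% ± 0.505 in cycling strains (SD over n = 4 strain means each). In an exact two-sided permutation test of the strain means p was 0.0286, the smallest this design allows, and 0.0571 when adjusted over the 4 shares tested.

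Ribosomal RNA left after depletion moved the other way, with 11.5% ± 1.61 of counts in G1 strains and 8.69% ± 1.22 in cycling strains (exact permutation p = 0.0571, n = 4 strain means each). The part of ribosomal RNA in the ribosomal protein share was not tested. With ribosomal RNA genes left out of the fit, the median log2 fold change of the ribosomal protein genes was −0.64, and 5 were lower in all pairs. Within batches 1, 2 and 3 the difference in the ribosomal protein share was −1.88, −1.48 and −0.74 percentage points. Of 61 ribosome biogenesis genes, 27 were lower and 9 higher on average (34.4% and 34.1% of all genes). In all pairs 1 was lower, and 4 with the block. fib1, for the nucleolar protein fibrillarin, had 139, 183 and 220.4 CPM in G1-arrested cells, against 293, 334 and 409 CPM in cycling cells, a difference of −0.93 ± 0.08. Of 17 genes of glycolysis, 14 were lower on average (34.4% of all genes). None held in all pairs (median −0.57), against 2 lower with the block.

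Chaperone genes separated into those even over strains and those that were not. ssa2, an Hsp70 of the cytosol, was found at 1162, 1581 and 1840.1 CPM in G1-arrested cells, against 2747, 3743 and 4509 CPM in cycling cells, a difference of −1.25 ± 0.09 (SE, adjusted p = 3.69e-11). hsp90 had 3917, 5103 and 6817 CPM in G1-arrested cells, against 7495, 10554 and 13868 CPM in cycling cells, a difference of −1.02 ± 0.09, and sks2, a ribosome-associated Hsp70, differed by −0.69 ± 0.07. These were the 3 of 22 lower in all pairs (median −0.05, 4 with the block, where 1 was higher). Over the settings tried, 1 to 4 were lower and 0 to 2 higher, with 1 lower without batch 1 or without batch 2. The call of sks2 ended when any of the 3 batches was left out and in 8 of the 24 settings without 1 library. That of hsp90 ended without batch 1 or without batch 2. ssa1 (0.02) and hsp104 (0.12) did not pass on average. None of 18 genes of the Sty1 stress pathway held in all pairs.

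The small heat-shock protein genes depended on the strain. hsp16 averaged 5253 and 6384 CPM in G1 strains 82 and 83 and 1774 and 2553 CPM in strains 84 and 85, against 2553 and 3589 CPM in cycling strains 86 and 97 and 333 and 258 CPM in strains 92 and 93. The average difference was 1.90 ± 0.20 (SE, adjusted p = 7.74e-08), but single pairs spanned −1.02 to 4.63, and it did not pass within any batch or with the replicates of each strain summed. hsp9 showed the same split of strains within each side, with pairs from −1.47 to 3.45.

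Differences of 4 iron genes varied between batches. frp1, a ferric reductase of iron uptake, was found at 18.2, 118 and 289 CPM in G1-arrested cells, against 11.3, 15.4 and 26.8 CPM in cycling cells, a difference of 2.77 ± 0.48 (SE, adjusted p = 7.17e-05) in all 16 pairs. Within batches 1, 2 and 3 it was 4.03, 2.38 and 0.74 (adjusted p = 8.76e-07, 0.000111 and 0.0807 in edgeR). str3, a heme transporter gene, reached 448 CPM in 1 G1 library and 0.164 CPM in another, and its difference of 5.0 ± 1.14 passed in 4 pairs. fip1 and fio1, the iron permease and oxidase, were higher on average (1.99 ± 0.54 and 1.88 ± 0.54), passed in no pair and were −0.46 and −0.14 within batch 3. Of 12 iron genes frp1 alone held in all pairs, and 2 genes did with the block. The call of frp1 ended in 20 of the 24 settings without 1 library, without batch 1 or batch 2 and with no filter on low counts.

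pho1, the secreted acid phosphatase, was found at 236, 578 and 855 CPM in G1-arrested cells, against 108, 145 and 218 CPM in cycling cells, a difference of 1.95 ± 0.17 (SE, adjusted p = 1.01e-08), and it was the 1 of 11 phosphate and thiamine genes held in all pairs (with the block 1 was also lower). zym1, for a metallothionein, was the 1 of 6 zinc genes held, with 35.9, 63.3 and 91.4 CPM in G1-arrested cells, against 10.7, 15.7 and 29.4 CPM in cycling cells, a difference of 1.86 ± 0.14. Neither overlapped between the sides. SPAPB1A11.03, annotated as a lactate dehydrogenase, was among the 10 largest coding rises, with 2.82, 7.35 and 45.2 CPM in G1-arrested cells, against 0, 0.562 and 2.38 CPM in cycling cells, a difference of 3.59 ± 0.46. Its highest G1 library stood far above the median. Its call in all pairs ended in 14 of the 24 settings without 1 library, and also without batch 1 or without batch 2.

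**Figure D5:**
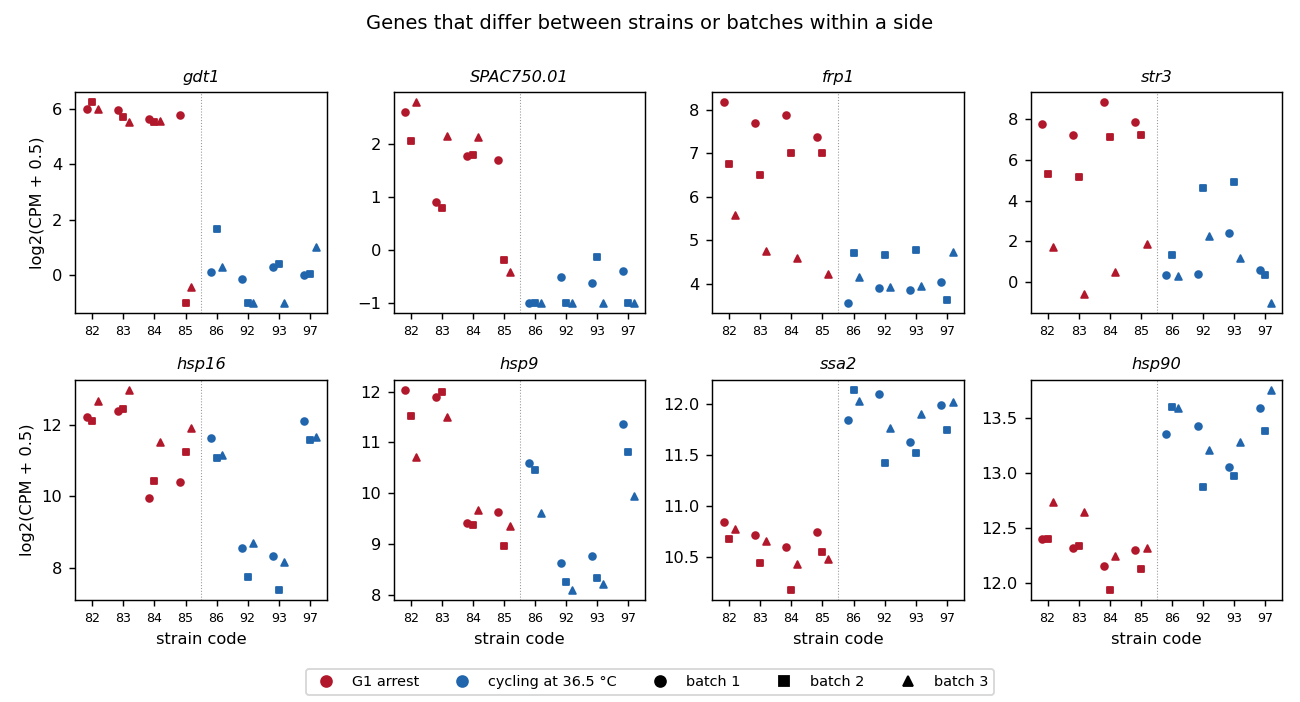
Expression of 8 genes as log2(CPM + 0.5), 1 point for each library, by strain code, with G1-arrested strains (82 to 85) in red on the left, cycling strains (86 to 97) in blue on the right and a shape for each batch. gdt1 and SPAC750.01 drop in replicates 2 and 3 of strain 85, frp1 and str3 differ between batches in G1, hsp16 and hsp9 split by strain on both sides, and ssa2 and hsp90 are even (ssa2 median 1581 against 3743 CPM).

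Genes at the right end of chromosome I gave some of the largest differences, and these were uneven. gdt1 (SPAC186.05c, chromosome I, 5540032 to 5541502) was found at 0, 50.7 and 75.1 CPM in G1-arrested cells, against 0, 0.555 and 2.63 CPM in cycling cells, a difference of 6.14 ± 0.73 (SE, adjusted p = 9.42e-07). SPAC750.01, farther toward the end, had 0.246, 2.95 and 6.41 CPM in G1-arrested cells, against 0, 0 and 0.403 CPM in cycling cells, with at most 3 counts in each cycling library. Its call in all 16 pairs ended in 20 of the 24 settings without 1 library, and when any of the 3 batches was left out. That of gdt1 ended in 8 of the 24, and also without batch 1 or without batch 3. Over the 16 genes from SPAC186.04c (5538480) to the last gene of the arm (5579133), of which 4 could be tested, 10 G1 libraries held 4099 counts, with 288 to 554 each. Replicates 2 and 3 of G1 strain 85 held 7 counts together. The 12 cycling libraries held 53 (0 to 11 each) and the 48 libraries of the other 4 conditions held 347 (0 to 25 each).

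The counts thus fell into 10 libraries with at least 288 counts in this stretch and libraries with at most 25. Whether the stretch is present in the genomes of the libraries with few counts was not tested. In the same replicates of strain 85, gal10 had 75.2 and 125 CPM, against 7.7 CPM in its replicate 1 and 8.25, 2.14 and 3.65 CPM in strain 84. Within 100 kb of the chromosome ends, 12 of 192 genes tested (6.25%) were higher and 3 (1.56%) lower in all pairs, and elsewhere 296 of 5984 (4.95%) and 298 (4.98%).

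Non-coding RNAs were more often higher than lower in arrested cells. Of 1035 tested, 133 (12.9%) were higher and 11 (1.06%) lower in all 16 pairs, against 173 (3.48%) and 290 (5.84%) of 4969 coding genes. Median log2 fold changes were 0.72 and −0.09. At an average of 5 log2 CPM and above they were 0.65 and −0.14, with 26% of non-coding and 2.91% of coding genes higher. Low coding genes (below 3) also had a median of 0.71, and 0 of 171 were lower in all pairs, so the median of coding genes changed sign with abundance, while that of non-coding RNAs was above 0 in each range. Non-coding RNAs took 6.54% ± 0.445 of counts in G1 strains and 4.97% ± 1.11 in cycling strains (SD, n = 4 strain means each, exact permutation p = 0.0571). Within batches 1, 2 and 3 the difference in this share was 0.33, 2.40 and 1.99 percentage points. The sides overlapped, with 7.77% in the highest G1 library and 7.82% in the highest cycling library.

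omt3, a long non-coding RNA, gave the largest such rise. It was found at 35, 93.6 and 217 CPM in G1-arrested cells, against 0.292, 1.13 and 2.27 CPM in cycling cells, a difference of 6.42 ± 0.27 (SE, adjusted p = 1.80e-13). The sides did not overlap, and it has no neighbour that overlaps it in the annotation. SPNCRNA.1069 was among the 4 largest non-coding falls, with 2.92, 6.77 and 10.3 CPM in G1-arrested cells, against 35, 38.5 and 48.0 CPM in cycling cells, a difference of −2.57 ± 0.13. SPAC513.04, a small coding gene beside mfm2, had 5.66, 8.38 and 10.5 CPM in G1-arrested cells, against 0, 0.101 and 0.721 CPM in cycling cells, and against the 3-count floor of the cycling libraries was at least 3.76-fold higher.

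Antisense RNAs were followed with their sense partners. Of 546 tested, 81 (14.8%) were higher and 7 (1.28%) lower in all pairs. Of the 79 tested sense partners of those higher, 20 were higher and 38 lower on average, against 195 and 160 of all 520 partners. lid2-antisense-1 was found at 15.1, 19.4 and 28.5 CPM in G1-arrested cells, against 0, 1.25 and 1.81 CPM in cycling cells, a difference of 3.98 ± 0.15, while lid2, a histone demethylase gene, differed by −0.95 ± 0.12. end4-antisense-1 (3.95 ± 0.20) lies over end4 (−0.60 ± 0.07), an endocytosis gene. cdc18-antisense-1 was higher (2.48 ± 0.18) where cdc18 was lower.

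Partners of other antisense RNAs differed little or moved either way. cdc2-antisense-1 had 19.2, 25.9 and 32.4 CPM in G1-arrested cells, against 1.21, 2.47 and 7.08 CPM in cycling cells, a difference of 2.96 ± 0.20, beside cdc2 at 0.19. orc1-antisense-1 differed by 2.18 ± 0.15 beside orc1 at −0.13. mug135-antisense-1 (2.79 ± 0.24) and mug135 (2.10 ± 0.12) both rose in all pairs. Of those that fell, rev1-antisense-1 (−2.25 ± 0.17) lies over rev1, a translesion polymerase gene that rose by 1.72 ± 0.07, ams2-antisense-1 (−2.66 ± 0.25) over ams2, and mrpl4-antisense-1 (−1.78 ± 0.16) over mrpl4 (−0.19 ± 0.08).

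The libraries are stranded, but whether counting used the strand is not given in the sources used here. In the table, 587 coding genes with at least 90% of their exons under an annotation on the opposite strand had a median of 3604 counts per kb, against 4921 for 2141 genes with none. 612 antisense RNAs had a median of 0.163 of the counts per kb of their partner, with quartiles of 0.0494 and 0.5292. If strand was not used, reads of an antisense RNA and of its partner cannot be told apart.

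Levels of a few genes were set beside those in the other growth conditions of the series. With all 72 libraries scaled together, the medians of eng1 in CPM (n = 12 each) were 549.9 in V25, 449 in V36.5, 30.6 in G1_36.5, 39.9 in T0-N, 18.5 in T4D25 and 13.2 in T4D36.5, with G1 arrest and the starved cells below both cycling conditions. Here V25 is cycling at 25 °C, T0-N is 24 hours without nitrogen, and T4D25 and T4D36.5 are the later starved samples at each temperature. These medians are descriptions, and no test was run between these conditions. mam2 had 8.76 in V25, 7.74 in V36.5, 120.1 in G1_36.5, 1747 in T0-N, 189.9 in T4D25 and 5.37 in T4D36.5, so its level in G1 arrest was between those of cycling and newly starved cells. mei2 had 18.5 in V25, 12.9 in V36.5, 85.5 in G1_36.5, 1925 in T0-N, 866 in T4D25 and 154 in T4D36.5.

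omt3 had 0.948 in V25, 0.988 in V36.5, 83.0 in G1_36.5, 644 in T0-N, 316 in T4D25 and 214 in T4D36.5, and every condition with arrested or starved cells stood above both cycling conditions. For the genes of S phase the G1 arrest stood lowest or near it. cdc22 had 641 in V25, 758 in V36.5, 183 in G1_36.5, 343 in T0-N, 289 in T4D25 and 292 in T4D36.5, with all 3 starved medians above that of the cdc10-129 cells. hta2 had 671 in V25, 255 in V36.5, 66.3 in G1_36.5, 413 in T0-N, 529 in T4D25 and 294 in T4D36.5, the lowest median of the 6 conditions being that of G1 arrest. cdc18 had 52.8 in V25, 71.4 in V36.5, 23.5 in G1_36.5, 65.2 in T0-N, 17.5 in T4D25 and 18 in T4D36.5. gdt1 had 0.464 in V25, 0.488 in V36.5, 45 in G1_36.5, 0.474 in T0-N, 0.299 in T4D25 and 0.370 in T4D36.5, and its highest single library outside G1 arrest had 5.61 CPM.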

How the data were processed

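RNA was sequenced from 72 cultures of Schizosaccharomyces pombe, as biological triplicates per strain and condition. Per the labels, ribosomal RNA was depleted with the Ribominus kit, and stranded libraries were read as pairs of 58 bases. The authors deposited 1 table of raw counts per gene, made with STAR 2.7.10a and featureCounts 1.5.1 on ASM294v2 per the submitters' processing notes. The strand setting is not given in the sources used here. Limits given from counts cover counting error only.

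The table holds 7014 rows of genes and 92 further rows of ERCC spike-in RNAs, which were left out of library sizes and tests. In it 0 columns went unmapped. Counts of 24 libraries were fitted in edgeR 4.0.16 (R 4.3.3) with filterByExpr, TMM scaling, 1 coefficient for each of 8 strain codes and the robust quasi-likelihood test. The average contrast and 16 pair contrasts were each adjusted over 6219 genes by the Benjamini-Hochberg method at 0.05. The SE is the size of the log2 fold change over the square root of F. Shares of counts were compared over 4 strain means a side with an exact permutation test. Motif windows came from RefSeq ASM294v3 by gene identifier, for all 4969 coding genes tested.

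The replicate numbers are batches in the labels and so pair the libraries. Deviations from the strain means correlated at 0.221 on average for libraries of the same batch across sides and at −0.109 for those of different batches, and 37 of 48 same-batch correlations were over 0.1. The fit without batch is the one reported.

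Named genes are, in each list, up to 4 members held in all pairs with the largest changes, its first 3 members and those against its direction, plus the 10 largest coding and 4 largest non-coding changes each way by the smallest pair difference (average log2 CPM of at least 1), cdc10 and the mating-type genes. Other names are said to be chosen after their values were seen, or are further members of a list or partners of a named RNA. Some genes that this rule takes are not reported here. The members and lists were chosen with earlier results of these data known. Alternatives were a likelihood ratio test, DESeq2 1.42.0, its size factors, 2 other filters, a batch block, single batches, strain sums, other rows left out or kept, and leaving out each strain, batch and library.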

Additional observations from a re-analysis of the deposited data

Results flagged for a closer look

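ERCC spike-in RNAs, which enter no comparison above, gave 102 counts summed over the 4 G1-arrest libraries of batch 3, against 13 counts over the 4 cycling libraries of batch 3. In batches 1 and 2 together they gave 1 count in G1-arrested cells and 2 in cycling cells. The sources used here name no spike-in step for these libraries, and the origin of the counts was not tested.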

How the results depend on the processing

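The number of genes differing on average (4260) was 4283 with the likelihood ratio test, 4282 with DESeq2, 4260 with its size factors, 4387 with no filter, 3418 with at least 10 counts in every library, 3507 with strain sums, 4246 without ribosomal RNA genes and 4260 with spike-in RNAs kept. Within batches 1, 2 and 3, with 8 libraries each, it was 2777, 2724 and 2524. Leaving out strains, batches or single libraries gave 3358 to 4319. The number held in all 16 pairs (610) was 453 to 652 under these tests, scalings and filters and 986 with batch as a block. It ranged from 152 (without batch 2) to 755 (without strain 92) in the leave-outs, with 341 and 394 without batch 1 and batch 3. With strain 85 by its replicate 1 alone, chosen after seeing the data, it was 281.

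The batch pairing changed counts but lost none of the 610 calls. Of 100 named genes held in all pairs, 100 were held with the block, 99 under the likelihood ratio test, DESeq2 and its size factors, 57 without batch 2 and 70 with strain 85 by its replicate 1. The average change of res2 turned to 0.0578 within batch 1 and ranged from −0.228 to 0.0129 over the leave-outs. mrpl4 turned to 0.0766 within batch 2, and fip1 and fio1 to −0.46 and −0.14 within batch 3. The cause was not tested. The difference in spike-in counts per 1e6 ranged from −0.0104 without batch 3 to 2.10 without batch 1. Scaling by spike-in counts was not run, since most libraries hold 0. Depth limited low genes: 128 of the 610 could not be tested with at least 10 counts in every library.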

Other observations

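Replicates 2 and 3 of G1 strain 85 also differed from its replicate 1 at genes for galactose use. gal1 had 23.4 and 35.2 CPM in them, against 3.91 CPM in replicate 1, and in strain 84 it had 3.88, 0.777 and 2.68 CPM. gal7 had 16.2 and 22.3 CPM, against 5.74 CPM in replicate 1. mel1, the alpha-galactosidase gene, had 13.9 and 15.4 CPM, against 1.57 CPM in replicate 1. In strains 82 and 83 gal1 was at 83.7 to 127 CPM. yhb1, a flavohemoglobin gene on chromosome I, had 31.6 and 38.4 CPM in these replicates, against 101 CPM in replicate 1. These genes were chosen after their values were seen.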
